A study of Mus musculus with 71 samples.

Results

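Whole blood of 12 HOCl mice that received an agent labelled D06 was compared with whole blood of 11 control mice, 23 of the 71 mice of the series. The members were taken by their column names in the count table and in the table of normalized values, without use of any measured value. The animals were female Balb/c AnNRj mice, 6 weeks old when they entered the study. The D06 mice received repeated intradermal injections of hypochlorous acid (HOCl) into the shaved back, which produces skin and lung fibrosis and serves as a mouse model of systemic sclerosis. The control mice received PBS in place of HOCl. The title of the series refers to antibodies against galectin-3, a secreted lectin encoded by Lgals3, but the labels give neither the nature nor the target, dose or schedule of D06. The comparison of D06 with control mice therefore covers HOCl and D06 together. The HOCl mice without an agent (12 mice, 11 of them with normalized values) and the HOCl mice given E07 or D11 (12 each), 2 antibodies against galectin-3, were used only to place the D06 mice. The other group of the series, 12 HOCl mice given an agent labelled BPR21, was part of the fits that all 6 groups shared. Its comparison with D06 mice is not reported here. The groups were kept in separate cages, so that cage and group cannot be told apart. The genotype entry of the control mice reads the same as that of the HOCl mice, and the sample titles were followed.

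Whole blood RNA comes from nucleated white cells, from platelets and, in large part, from reticulocytes, the young red cells that still carry messenger RNA after the nucleus is lost. Reticulocytes clear their mitochondria and RNA within days, while erythroblasts of the marrow and spleen make heme and the membrane skeleton under transcription factors such as GATA1 and KLF1. The libraries were poly A selected and depleted of globin transcripts. In such bulk samples a lower level of a marker can come from fewer cells of a type or from less RNA per cell, and these cannot be told apart.

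The D06 libraries held 12427021 to 15948972 counts and the control libraries 12909228 to 15861471. The mean log2 totals differed by -0.01 (two-sided permutation test, p = 0.747). The size factors, which scale each library to the typical gene, were 0.868 ± 0.198 (SD, n = 12) in D06 mice and 1.29 ± 0.261 (SD, n = 11) in control mice, a log2 difference of -0.59 (two-sided permutation test, p = 0.00044). Along the first principal component of the 23 mice, which held 30.7% of the variance, D06 mouse 5 (47.4) lay farthest to the D06 side, control mouse 12 (19.2) lay above the D06 median of 11.2, and D06 mouse 8 (-10.2) lay among the control mice.

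Normalized values (vst, on a log2 scale with a lowest value of 6.06 for a gene without counts) were compared with limma, and a gene was called when the Benjamini-Hochberg adjusted p was at most 0.05 and the fold change at least 1.3. Of 10508 genes, 764 rose (7.27%) and 64 fell (0.609%) in D06 mice. The genes with the largest increases were made up in good part of genes of the red cell, joined by interferon-stimulated and antioxidant genes, and the largest decrease was that of Cx3cr1, the fractalkine receptor of monocytes. edgeR on the counts of the same genes called 844 (8.04%) higher and 160 (1.52%) lower. limma and edgeR called 787 genes in the same direction, out of the 828 of limma. The level of the typical gene depended on the scaling. When counts were divided by the library totals, the log2 fold change of the median gene went from -0.03 to -0.57, and 292 genes were higher and 6750 lower. Of the 764 genes that rose, 627 stayed positive and 286 were called higher under that scaling, and 63 of the 64 that fell were called lower. Without D06 mouse 5 and control mouse 12 together, 849 genes were higher and 155 lower.

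**Figure D1:**
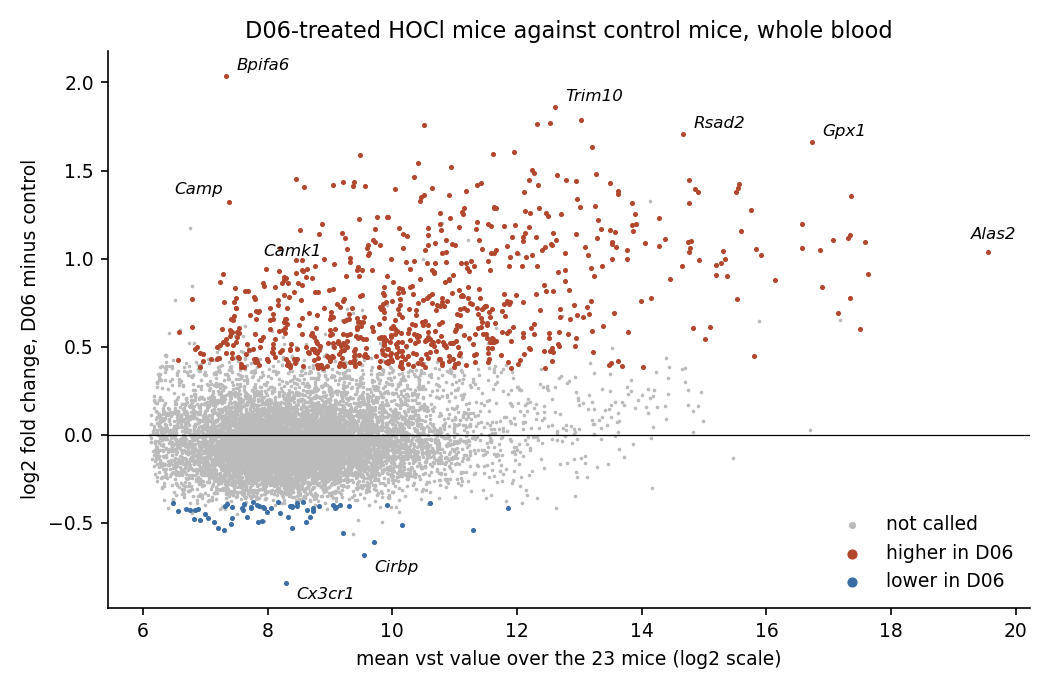
Log2 fold change of the vst values, D06 minus control (vertical axis), against the mean vst value over the 23 mice (horizontal axis, log2 scale), 1 point per gene. The 764 genes called higher reach 2.04 and include genes of high expression such as Alas2 and Gpx1, while the 64 genes called lower end at Cx3cr1 with -0.84.

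**Figure D2:**
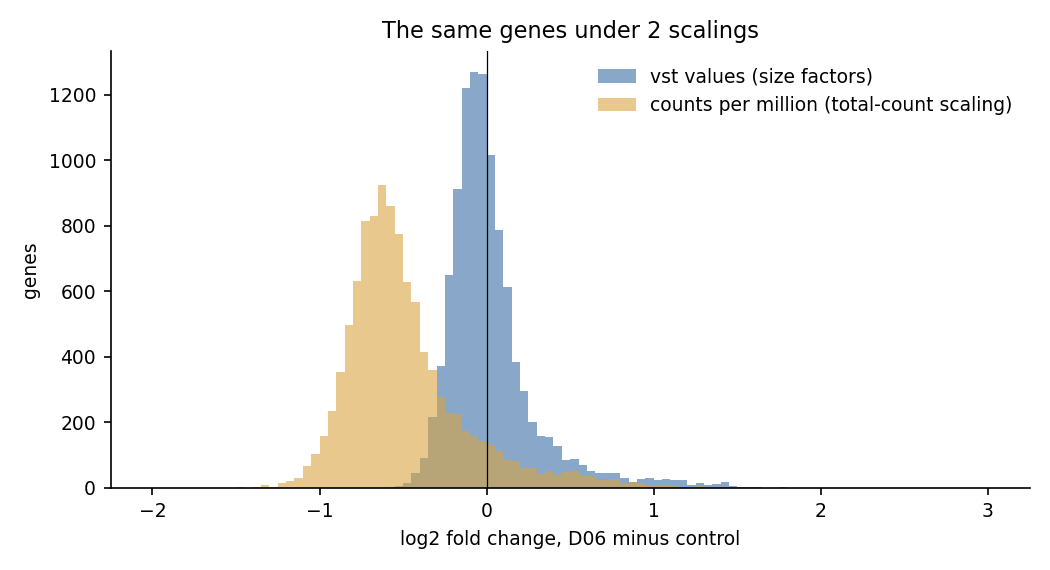
Number of genes (vertical axis) by log2 fold change, D06 minus control (horizontal axis), for vst values and for log2 of CPM (counts scaled to the library total) plus 1. Dividing by the library totals moves the median gene from -0.03 to -0.57, and 627 of the 764 genes that rose stay positive.

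Red cell genes moved furthest as a group. Of 18 genes of the red cell membrane and skeleton, 16 rose, beside 7.27% of all genes, and none fell. Their median log2 fold change was 1.09 against -0.03 over all genes (0.76 against -0.57 under total-count scaling). Slc4a1 (ENSMUSG00000006574, chr11:102239650-102257029 on GRCm39) encodes the band 3 anion exchanger. Its vst values ranged from 12.69 to 16.48 (median 14.14) in the D06 mice and from 10.89 to 14.15 (median 12.94) in the control mice. The groups overlapped, although 6 of the 12 D06 mice lay above the highest control mouse and 10 above the control median. The difference was 1.43 ± 0.34 (SE, adjusted p = 0.00613). Kel, which encodes the Kell blood group protein, averaged 10.24 ± 0.75 (SD, n = 12) against 8.83 ± 0.66 (SD, n = 11) and rose by 1.41 ± 0.26 (SE, adjusted p = 0.00138), and Rhd, a Rhesus blood group protein, rose by 1.20 ± 0.23 (SE, adjusted p = 0.00156). Epb42, a protein that anchors the skeleton to band 3, was chosen after its values were seen and rose by 1.54 ± 0.36 (SE, adjusted p = 0.00605).

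All 17 measured genes of reticulocyte maturation, of 19 listed, rose, beside 7.27% of all genes. Their median was 1.17 (0.69 under total-count scaling, under which all 17 were also called higher). Trim10 (ENSMUSG00000073400, chr17:37180406-37188725), a ubiquitin ligase needed in late erythroid cells, showed the largest increase of a gene read in all 23 mice. Values of Trim10 ranged from 12.09 to 15.29 (median 13.45) in the D06 mice and from 9.73 to 13.93 (median 11.82) in the control mice. Of the D06 mice, 12 of 12 lay above the control median and 2 above the highest control mouse, the highest control value being that of control mouse 12. The increase was 1.86 ± 0.35 (SE, adjusted p = 0.00156). Bnip3l, a receptor for the removal of mitochondria from reticulocytes, averaged 18.01 ± 0.58 (SD, n = 12) against 16.65 ± 1.00 (SD, n = 11), and it rose by 1.36 ± 0.30 (SE, adjusted p = 0.00342). Tspo2, an erythroid carrier of cholesterol, rose by 1.59 ± 0.27 (SE, adjusted p = 0.000998), with 5 D06 mice above every control mouse. Isg20, an interferon-induced exonuclease, was also in that list.

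Heme synthesis showed 8 of 12 genes higher, beside 7.27% of all genes, and none lower. The median was 0.72 (0.41 under total-count scaling). Alas2, the erythroid enzyme of the first step of heme synthesis, was the most abundant named transcript with 19.28 to 21.86 (median 19.95) in D06 mice and 17.66 to 20.18 (median 18.98) in control mice. It rose by 1.04 ± 0.27 (SE, adjusted p = 0.0102), although only 3 D06 mice exceeded every control mouse. Urod, a later enzyme of the pathway, was at 10.37 to 13.42 (median 11.87) in D06 mice and 9.27 to 11.93 (median 10.53) in control mice and rose by 1.39 ± 0.27 (SE, adjusted p = 0.0018). For Uros, the enzyme before it, the average was 8.59 ± 0.33 (SD, n = 12) against 7.93 ± 0.32 (SD, n = 11), and the increase was 0.66 ± 0.13 (SE, adjusted p = 0.00182). Slc25a37, mitoferrin-1, which brings iron into the mitochondrion, was chosen after its values were seen and rose by 1.44 ± 0.30 (SE, adjusted p = 0.00225), with 9 D06 mice above all control mice.

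Among 11 erythroid transcription factors and receptors, 7 rose, beside 7.27% of all genes. Their median of 0.45 turned to -0.02 under total-count scaling. Gata1, the master factor of red cell genes, was at 9.33 to 10.31 (median 9.64) in D06 mice and 8.74 to 9.96 (median 9.38) in control mice and rose by 0.46 ± 0.13 (SE, adjusted p = 0.0177), but its log2 fold change was -0.02 under total-count scaling. Klf1, the erythroid factor that binds CACCC boxes, was at 7.40 to 8.32 (median 7.68) in D06 mice and 6.73 to 8.02 (median 6.93) in control mice and rose by 0.67 ± 0.14 (SE, adjusted p = 0.00215) (0.87 under total-count scaling). Lmo2, an adaptor of the same complexes, rose by 0.93 ± 0.24 (SE, adjusted p = 0.00998). The transferrin receptor Tfrc, chosen after its values were seen, rose by 0.98 ± 0.28 (SE, adjusted p = 0.0236) and lost the call with limma's trend and robust moderation (adjusted p = 0.0553) and without control mouse 1 (adjusted p = 0.0531) or control mouse 8 (adjusted p = 0.0509), as well as under total-count scaling. Together the 58 genes of the 4 red cell lists took 12.1% to 28.5% of all counts in D06 mice (16.5% ± 4.34, SD, n = 12) and 5.33% to 18.1% in control mice (11.6% ± 3.85, SD, n = 11). All 12 D06 mice lay above the control median, and 3 lay above the highest control mouse. The highest share belonged to D06 mouse 5 and the highest control share to control mouse 12, the same libraries that stood apart on the first component. Without these 2 mice 16 membrane, 8 heme synthesis, 6 factor and 17 maturation genes were called higher, beside 849 of all 10508 genes.

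The following stretches of 250 bases before the start of the canonical transcript (GRCm39, GENCODE vM39, written 5′ to 3′ on the strand of the gene) are shown because red cell and interferon-stimulated genes led the increases. In the first, capitals mark matches to the GATA motif AGATAA and to CACCC on either strand. In the other two, capitals mark the core of the interferon-response element (GAAA, any 2 bases and GAAA again) on either strand, where overlapping matches run together.
Trim10, chr17:37180156-37180405, plus strand: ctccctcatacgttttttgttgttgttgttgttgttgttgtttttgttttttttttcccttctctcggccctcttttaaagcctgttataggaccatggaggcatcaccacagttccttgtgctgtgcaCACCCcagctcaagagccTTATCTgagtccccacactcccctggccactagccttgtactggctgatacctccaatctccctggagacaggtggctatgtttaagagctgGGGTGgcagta
Isg15, chr4:156285304-156285553, minus strand: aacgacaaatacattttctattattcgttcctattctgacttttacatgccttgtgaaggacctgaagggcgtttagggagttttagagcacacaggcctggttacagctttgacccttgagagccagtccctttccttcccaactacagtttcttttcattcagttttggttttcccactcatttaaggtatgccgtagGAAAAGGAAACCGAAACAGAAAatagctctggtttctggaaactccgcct
Rsad2, chr12:26506452-26506701, minus strand: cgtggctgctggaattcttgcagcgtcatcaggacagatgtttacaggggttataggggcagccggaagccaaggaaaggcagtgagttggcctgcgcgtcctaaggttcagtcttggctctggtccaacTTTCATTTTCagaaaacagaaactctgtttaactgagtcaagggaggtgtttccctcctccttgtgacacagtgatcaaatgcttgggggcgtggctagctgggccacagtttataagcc
The Trim10 stretch held 1 AGATAA match and 2 CACCC matches, Isg15 held 3 overlapping matches to the interferon-response core and Rsad2 held 1. AGATAA occurred in 7.8% of the 10497 windows of all tested genes, in 8.8% of those of the genes that rose and in 17.2% of the 58 windows of the red cell lists. For CACCC the shares were 54.9%, 57.7% and 62.1%. The interferon-response core occurred in 3.3% of all windows, in 3.8% of those of the genes that rose, in 8.6% of those of the red cell lists and in 40.7% of the 27 windows of the interferon-stimulated list. A match is a run of letters and was not tested as a binding site.

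Several of the genes with the largest increases belonged to no list. Cmas, which activates sialic acid, was at 11.55 to 15.15 (median 13.09) in D06 mice and 10.23 to 13.04 (median 11.48) in control mice. Its increase was 1.76 ± 0.30 (SE, adjusted p = 0.000998), and 6 D06 mice exceeded all control mice. St3gal5, a sialyltransferase that makes the ganglioside GM3, rose by 1.60 ± 0.29 (SE, adjusted p = 0.00117). Ctsf, a lysosomal cysteine protease, averaged 11.35 ± 0.63 (SD, n = 12) against 9.59 ± 0.86 (SD, n = 11) and rose by 1.76 ± 0.27 (SE, adjusted p = 0.000954). Blvrb, biliverdin reductase B, which is abundant in red cells, rose by 1.60 ± 0.29 (SE, adjusted p = 0.00117), and Prxl2a, a peroxiredoxin-like protein, by 1.63 ± 0.36 (SE, adjusted p = 0.00369). All 5 had a log2 fold change between 1.09 and 1.39 under total-count scaling.

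**Figure D3:**
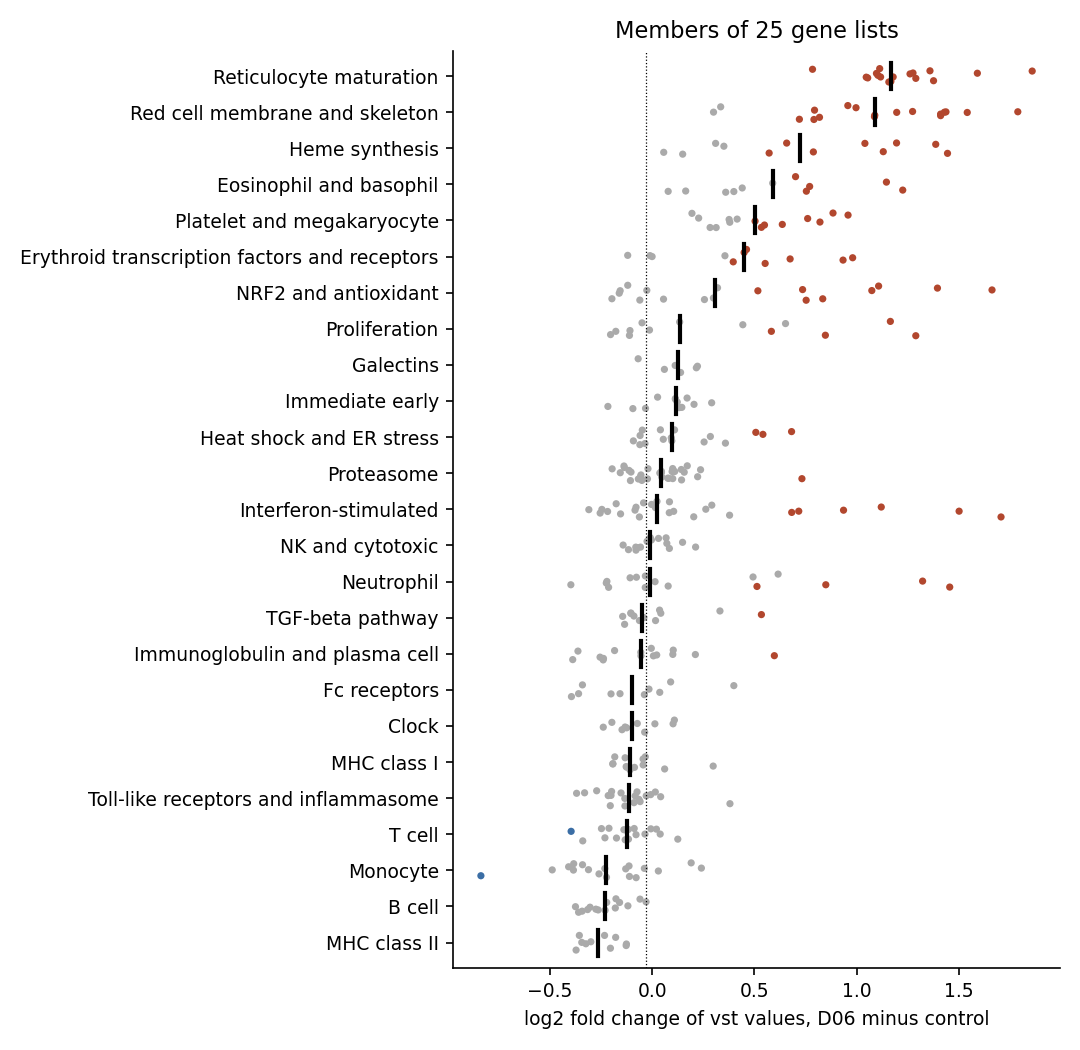
Log2 fold change of vst values, D06 minus control (horizontal axis), of the members of 25 gene lists (rows), with red points for genes called higher, blue for genes called lower, grey for others, a bar at the median of each list and a dotted line at the median of all genes (-0.03). The lists of reticulocyte maturation (1.17) and of the red cell membrane (1.09) lie farthest to the right, and the B cell and MHC class II lists lie to the left without a called gene.

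Antioxidant genes rose in part. Of 18 measured NRF2 targets and antioxidant genes, 8 rose, beside 7.27% of all genes, with a median of 0.31 (-0.23 under total-count scaling). Gpx1, the glutathione peroxidase that is abundant in red cells, was at 16.23 to 18.99 (median 17.51) in D06 mice and 14.63 to 18.10 (median 15.71) in control mice, a difference of 1.66 ± 0.30 (SE, adjusted p = 0.00117). Only 1 D06 mouse exceeded the highest control mouse, whereas all 12 exceeded the control median. Gpx4, which reduces lipid peroxides, was at 12.53 to 13.56 (median 13.32) in D06 mice and 12.17 to 13.31 (median 12.40) in control mice and rose by 0.74 ± 0.12 (SE, adjusted p = 0.000998). The factor itself, Nfe2l2 (NRF2), had a log2 fold change of -0.16 (adjusted p = 0.348) and was not called. The other called members, chosen after their values were seen, were the peroxiredoxin Prdx2 with 1.39 (adjusted p = 0.00318), catalase Cat with 1.11 (adjusted p = 0.00334), the glutathione synthesis subunit Gclm with 1.07 (adjusted p = 0.00246), Nqo1 with 0.83 (adjusted p = 0.00222), the mitochondrial dismutase Sod2 with 0.75 (adjusted p = 0.0062) and sulfiredoxin Srxn1 with 0.52 (adjusted p = 0.0144), the last at -0.01 under total-count scaling. Gpx4 and Sod2 also lost the call under that scaling, with 0.18 (adjusted p = 0.276) and 0.29 (adjusted p = 0.0802), and 5 of the 8 genes were called.

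Of 27 measured interferon-stimulated genes, 6 rose and none fell, where 7.27% of all genes rose. The median of the list was 0.02, close to that of all genes, so that the increase was limited to a minority of its members. Rsad2 (viperin, ENSMUSG00000020641, chr12:26492745-26506451) was at 14.20 to 17.67 (median 15.39) in D06 mice and 12.01 to 15.12 (median 13.84) in control mice. In 10 of 12 D06 mice its level exceeded every control mouse, and the difference was 1.71 ± 0.32 (SE, adjusted p = 0.00156). Isg15 (ENSMUSG00000035692, chr4:156283883-156285303), a ubiquitin-like modifier, was at 12.11 to 14.44 (median 12.94) in D06 mice and 10.85 to 12.89 (median 11.24) in control mice and rose by 1.50 ± 0.23 (SE, adjusted p = 0.000954). For Irf7, the factor that amplifies type I interferon, the values were 12.96 to 15.18 (median 13.80) in D06 mice and 11.84 to 14.03 (median 12.64) in control mice and the increase 1.12 ± 0.22 (SE, adjusted p = 0.00201). The other called members, chosen after their values were seen, were Oas3 with 0.94 (adjusted p = 0.00599), Ifit1 with 0.72 (adjusted p = 0.00941) and Usp18 with 0.68 (adjusted p = 0.0098). Ifit1 and Usp18 lost the call under total-count scaling (adjusted p = 0.159 and 0.104) and kept a positive sign, as did the other 4. In HOCl mice without an agent the log2 fold change against the same control mice was 1.59 for Rsad2, 1.49 for Isg15 and 1.04 for Irf7.

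Platelet and megakaryocyte genes rose in 8 of 15 cases, beside 7.27% of all genes, and none fell. The median was 0.50 (-0.06 under total-count scaling). Pf4, platelet factor 4, was at 14.20 to 15.50 (median 14.95) in D06 mice and 13.48 to 14.66 (median 13.97) in control mice, and 8 D06 mice exceeded all control mice. Its increase was 0.88 ± 0.16 (SE, adjusted p = 0.00104), but under total-count scaling it was 0.32 (adjusted p = 0.102). Gp9, a subunit of the von Willebrand factor receptor, averaged 12.54 ± 0.40 (SD, n = 12) against 11.58 ± 0.47 (SD, n = 11) and rose by 0.96 ± 0.17 (SE, adjusted p = 0.000998). Ppbp, a platelet chemokine, rose by 0.76 ± 0.13 (SE, adjusted p = 0.000998), and under total-count scaling its difference was 0.19 (adjusted p = 0.307). Clec1b, the podoplanin receptor CLEC-2, was chosen after its values were seen, rose by 0.82 ± 0.16 (SE, adjusted p = 0.00171) and lost the call under total-count scaling (adjusted p = 0.170).

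Of 11 measured eosinophil and basophil genes, 5 rose, beside 7.27% of all genes, with a median of 0.59 (0.37 under total-count scaling). Ccr3, the eotaxin receptor, was at 8.74 to 11.15 (median 10.20) in D06 mice and 8.26 to 9.29 (median 8.91) in control mice. The D06 values of Ccr3 were spread widely, and 10 of 12 lay above the highest control value. The increase was 1.23 ± 0.22 (SE, adjusted p = 0.00118). Alox15, a lipoxygenase of eosinophils, was at 8.72 to 10.74 (median 9.63) in D06 mice and 8.07 to 9.14 (median 8.57) in control mice, a difference of 1.15 ± 0.19 (SE, adjusted p = 0.000998), with 10 D06 mice above all control mice. Prg2, the eosinophil granule major basic protein, was near the lowest vst value in control mice (6.57 to 7.80 (median 7.14) in D06 mice and 6.06 to 6.77 (median 6.42) in control mice), rose by 0.77 ± 0.13 (SE, adjusted p = 0.000998) and was above all control mice in 11 of 12. Siglecf, an eosinophil lectin, rose by 0.70 ± 0.14 (SE, adjusted p = 0.00225) and Mcpt8, a basophil protease, by 0.75 ± 0.19 (SE, adjusted p = 0.00809), both chosen after their values were seen. In HOCl mice the difference from control was 0.06 for Ccr3, 0.26 for Alox15 and 0.23 for Prg2. D06 minus E07 mice gave 0.50 (adjusted p = 0.168), 0.39 (adjusted p = 0.227) and 0.41 (adjusted p = 0.0947) by limma, none of them called. The granule gene Epx and Ptgdr2 were not in the normalized table.

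Neutrophil genes were divided. The median of 16 genes was -0.01, and 4 rose, beside 7.27% of all genes. Camp, cathelicidin, a granule protein made in immature neutrophils, was at 7.01 to 9.81 (median 7.88) in D06 mice and 6.06 to 7.33 (median 6.64) in control mice. It rose by 1.32 ± 0.26 (SE, adjusted p = 0.00163) and exceeded all control mice in 10 D06 mice. Ngp, another granule protein of immature neutrophils, was at 7.82 to 11.37 (median 8.87) in D06 mice and 6.92 to 8.69 (median 7.74) in control mice and rose by 1.46 ± 0.30 (SE, adjusted p = 0.00225). On counts, where low levels are not compressed, edgeR gave 3.41 for Camp and 2.55 for Ngp. Retnlg and the granulocyte factor Cebpe, chosen after their values were seen, rose by 0.85 ± 0.22 (SE, adjusted p = 0.0127) and 0.51 ± 0.12 (SE, adjusted p = 0.00728), and both lost the call under total-count scaling (adjusted p = 0.375 and 0.110). S100a8, an abundant calgranulin of mature neutrophils, was at 12.90 to 15.59 (median 13.40) in D06 mice and 12.76 to 14.78 (median 13.52) in control mice with a difference of 0.01 ± 0.26 (SE, adjusted p = 0.982).

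**Figure D4:**
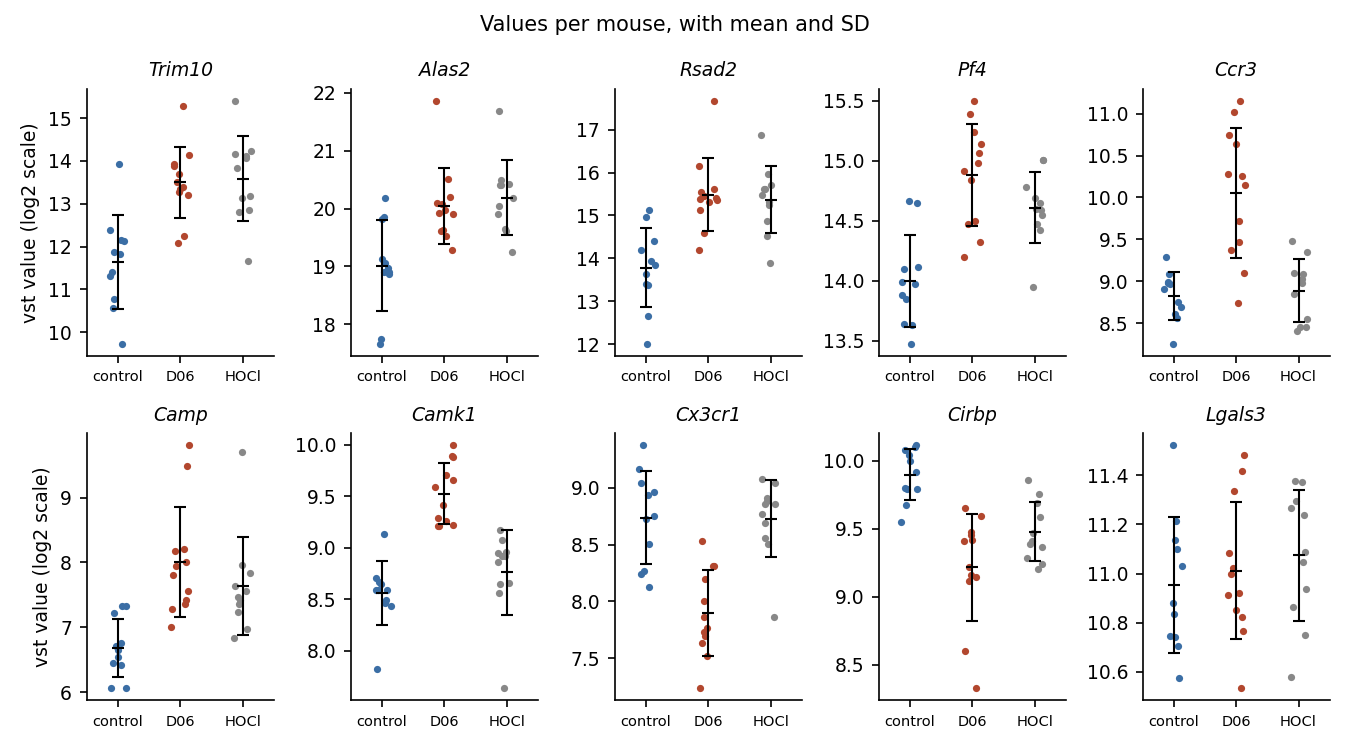
Vst values (vertical axes, log2 scale) of 10 genes in each control (n = 11), D06 (n = 12) and HOCl (n = 11) mouse, with the mean and SD as bars. D06 and HOCl values of Trim10, Alas2 and Rsad2 overlap, Camk1 lies above all control values in all 12 D06 mice, and Lgals3 overlaps between the groups.

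Monocyte genes had a median of -0.23, and 1 of 18 fell, beside 0.609% of all genes. Under total-count scaling 15 of the 18 were called lower, where 6750 genes in all were lower. Cx3cr1 was at 7.24 to 8.54 (median 7.81) in D06 mice and 8.13 to 9.37 (median 8.76) in control mice. In 8 of 12 D06 mice it lay below the lowest control value, and all 12 lay below the control median. The change was -0.84 ± 0.15 (SE, adjusted p = 0.00124). Csf1r, the receptor that maintains monocytes, had a difference of -0.41 ± 0.19 (SE, adjusted p = 0.177) and was not called. Ctss, cathepsin S of antigen-presenting cells, averaged 11.42 ± 0.21 (SD, n = 12) against 11.76 ± 0.24 (SD, n = 11), with a difference of -0.34 ± 0.10 (SE, adjusted p = 0.0217) that was below the fold required. Among the genes with the largest decreases were also Apoe, apolipoprotein E, with -0.54 (adjusted p = 0.0137), and Msr1, a macrophage scavenger receptor, with -0.53 (adjusted p = 0.0144). Msr1 was not called when all 6 groups shared a fit (adjusted p = 0.0719).

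Of the 48 genes of the B cell, T cell and NK lists, 1 fell and none rose, where 0.609% of all genes fell and 7.27% rose. None of 15 B cell genes was called by limma, all 15 had a negative log2 fold change with a median of -0.23, and 5 had an unadjusted p under 0.05. Over all 10508 genes, 2436 had an unadjusted p under 0.05 by limma. Bank1, a B cell scaffold protein, was at 9.19 to 9.97 (median 9.55) in D06 mice and 9.36 to 10.41 (median 9.96) in control mice, and its difference of -0.38 ± 0.11 (SE, adjusted p = 0.0328) was just under the fold required, although edgeR and DESeq2 called it lower. Cd22 had -0.32 (adjusted p = 0.113). All 10 MHC class II genes were negative as well, with a median of -0.27, and 5 had an unadjusted p under 0.05, but none was called by limma or DESeq2 and edgeR called only Ciita. The values of H2-Aa were 11.40 to 13.43 (median 12.90) in D06 mice and 12.46 to 13.53 (median 13.08) in control mice, with a difference of -0.34 ± 0.18 (SE, adjusted p = 0.261), and the class II transactivator Ciita had -0.37 (adjusted p = 0.0677) and H2-DMa -0.23 (adjusted p = 0.123). Of 18 T cell genes with a median of -0.12, only Cd5, an inhibitory receptor, fell. Cd5 was at 9.19 to 9.97 (median 9.79) in D06 mice and 9.72 to 10.53 (median 10.09) in control mice and fell by 0.40 (adjusted p = 0.0062). Without control mouse 7 or D06 mouse 6 it fell by 0.36 or 0.35, below the fold required. Cd3e, a chain of the T cell receptor complex, had -0.18 (adjusted p = 0.392), and Tcf7, a factor of naive T cells, -0.34 (adjusted p = 0.0109). The NK and cytotoxic list had a median of -0.01, close to that of all genes, and none of its 15 genes was called by limma, edgeR or DESeq2, and 0 had an unadjusted p under 0.05. There Ncr1 had -0.06 (adjusted p = 0.828), Ccl5 0.21 (adjusted p = 0.272) and Gzmb 0.15 (adjusted p = 0.396). Under total-count scaling, where 6750 genes in all were lower, 15 B cell, 18 T cell, 11 NK and 10 MHC class II genes were called lower. Without D06 mouse 5 and control mouse 12, 3 monocyte, 3 B cell and 1 MHC class II gene were called lower, beside 155 of all 10508 genes.

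Of 15 immunoglobulin and plasma cell genes, Ighg1, the constant region of IgG1, was the only one called, where 7.27% of all genes rose. It was at 6.67 to 8.42 (median 7.59) in D06 mice and 6.74 to 7.44 (median 7.06) in control mice and rose by 0.60 ± 0.16 (SE, adjusted p = 0.0164), and under total-count scaling it was not called (adjusted p = 0.0536). Ighm, the constant region of IgM, had -0.18 (adjusted p = 0.376), and Ighg2c, whose reads may be shared with other IgG constant regions, had -0.36 (adjusted p = 0.0488). Ighg2c was near the lowest vst value, with 0 to 25 counts (median 1) in D06 mice and 0 to 42 (median 18) in control mice. By edgeR its adjusted p was 0.177.

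Genes that belonged to no list also fell. Cirbp, a cold-inducible RNA-binding protein, was at 8.33 to 9.65 (median 9.32) in D06 mice and 9.55 to 10.11 (median 9.92) in control mice. In 10 of 12 D06 mice it lay below every control mouse, and it changed by -0.68 ± 0.13 (SE, adjusted p = 0.00138). Pik3ap1, an adaptor of PI3K signalling in B cells and macrophages, changed by -0.56 ± 0.11 (SE, adjusted p = 0.00215). Tifab, an inhibitor of TRAF signalling, was below all control mice in 9 of 12 D06 mice with -0.61 (adjusted p = 0.00321). Naaa, a lysosomal amidase, had -0.49 (adjusted p = 0.00937), and the lower expressed genes Cep57l1, Homez and Rpusd3 had -0.54, -0.53 and -0.50 (adjusted p = 0.00556, 0.00611 and 0.00986). Mettl22, a methyltransferase, fell by 0.51 (adjusted p = 0.0433) and was not called by edgeR on the counts (adjusted p = 0.191), nor when any 1 of 14 of the 23 mice was left out.

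Heat shock and ER stress genes had a median of 0.09 and 3 of 16 rose, beside 7.27% of all genes. Dnaja1, an HSP40 co-chaperone, was at 10.19 to 11.23 (median 10.72) in D06 mice and 9.53 to 10.49 (median 10.02) in control mice, rose by 0.68 ± 0.12 (SE, adjusted p = 0.000998) and was above all control mice in 8 of 12. Dnajb1, of the same family, rose by 0.54 ± 0.15 (SE, adjusted p = 0.0163), and Hsph1, an HSP110 chaperone chosen after its values were seen, by 0.51 ± 0.16 (SE, adjusted p = 0.0466). All 3 lost the call under total-count scaling (adjusted p = 0.366, 0.726 and 0.747), and Hsph1 also when all 6 groups shared a fit (adjusted p = 0.0731) and when any 1 of 16 of the 23 mice was left out. The constitutive chaperone Hspa8 had 0.25 (adjusted p = 0.109).

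Proliferation genes rose in 4 of 13 cases, beside 7.27% of all genes, with a median of 0.13 (-0.12 under total-count scaling). Ube2c, a mitotic ubiquitin-conjugating enzyme, was at 11.11 to 13.73 (median 12.25) in D06 mice and 9.39 to 12.83 (median 10.90) in control mice and rose by 1.29 ± 0.28 (SE, adjusted p = 0.00367). Ccna2, cyclin A2, rose by 1.16 ± 0.23 (SE, adjusted p = 0.00176), and the marker Mki67 had 0.65 (adjusted p = 0.0634) and was not called by limma, but was by edgeR with 0.94 (adjusted p = 0.038) and by DESeq2 with 0.96 (adjusted p = 0.0369). Ccnb2, cyclin B2, and the spindle factor Tpx2, chosen after their values were seen, had 0.85 (adjusted p = 0.00606) and 0.58 (adjusted p = 0.0349), the latter not called by edgeR (adjusted p = 0.0935) and not when any 1 of 10 of the 23 mice was left out.

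In the remaining lists few genes or none passed, where 7.27% of all genes were called higher and 0.609% lower. Lgals3, which encodes galectin-3, was at 10.53 to 11.48 (median 10.96) in D06 mice and 10.58 to 11.52 (median 10.88) in control mice. The groups overlapped almost fully, and the difference was 0.06 ± 0.11 (SE, adjusted p = 0.804), or -0.51 under total-count scaling, against -0.57 for all genes. Under that scaling Lgals3 was called lower (adjusted p = 0.0234 by limma), where 6750 genes in all were lower. The 6 measured galectins had a median of 0.13 and none was called by limma on vst values, with 0.22 (adjusted p = 0.213) for Lgals1 and 0.22 (adjusted p = 0.227) for Lgals9. Of the 6, 2 were called lower under total-count scaling. In the TGF-beta list of 12 genes, only Thbs1 rose, by 0.53 ± 0.14 (SE, adjusted p = 0.0127), a platelet granule protein that is also in the platelet list. Thbs1 lost the call under total-count scaling, with 0.09 (adjusted p = 0.635). Tgfb1 had -0.06 (adjusted p = 0.761) and Ltbp1, which binds latent TGF-beta, 0.33 (adjusted p = 0.112). Of 31 proteasome genes only Psmd4, a ubiquitin receptor, rose, by 0.73 ± 0.19 (SE, adjusted p = 0.0127), and it was not called under total-count scaling (adjusted p = 0.259), while Psma1 had -0.06 (adjusted p = 0.764) and Psmd8 0.24 (adjusted p = 0.107). No gene was called among 13 MHC class I genes (B2m 0.30 (adjusted p = 0.0219), Tap1 -0.18 (adjusted p = 0.197), Nlrc5 -0.19 (adjusted p = 0.253)), 10 Fc receptors (Fcgr1 -0.34 (adjusted p = 0.103), Fcmr -0.40 (adjusted p = 0.0913), Fcer2a -0.36 (adjusted p = 0.158)) or 20 Toll-like receptor and inflammasome genes (Tlr1 -0.13 (adjusted p = 0.415), Tlr6 -0.33 (adjusted p = 0.0735), Irak1 0.38 (adjusted p = 0.0766)). The same held for 12 immediate early genes (Fos 0.20 (adjusted p = 0.705), Atf3 0.29 (adjusted p = 0.196), Zfp36 -0.22 (adjusted p = 0.254)) and 10 clock genes (Arntl -0.15 (adjusted p = 0.54), Clock -0.24 (adjusted p = 0.395), Nr1d1 -0.20 (adjusted p = 0.419)). edgeR and DESeq2 on the counts called no gene of these lists or of the galectins either, and by limma 2 MHC class I, 3 Fc receptor, 3 Toll-like receptor, 1 immediate early, 0 clock and 1 galectin gene had an unadjusted p under 0.05. The same held for 2436 of all 10508 genes.

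The 2 groups did not overlap for 1 gene that was higher and 1 that was lower in D06 mice, of the 10508 genes (0.00952% each). Camk1, a calcium and calmodulin-dependent kinase, was at 9.21 to 10.00 (median 9.50) in D06 mice and 7.82 to 9.14 (median 8.59) in control mice, so that the lowest D06 mouse was above the highest control mouse. It rose by 0.97 ± 0.12 (SE, adjusted p = 0.000109). Hnrnpr, an RNA-binding protein chosen after its values were seen, was at 8.83 to 9.21 (median 9.13) in D06 mice and 9.22 to 9.54 (median 9.37) in control mice, and the difference of -0.29 ± 0.07 (SE, adjusted p = 0.00645) was below the fold required. The spread between mice was larger in the D06 group. The median SD of a gene was 0.290 in D06 mice and 0.227 in control mice, and 73.6% of the genes had the larger SD in D06 mice.

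Bpifa6, a member of the BPI fold family, had the largest fitted increase, and it came from 6 mice. D06 mice 1, 2, 6, 8, 10 and 12 held between 356 and 4235 counts, and the other 6 D06 mice held 0. Among control mice, 8 held 0 and the highest held 100. The limma difference was 2.04 ± 0.67 (SE, adjusted p = 0.0491), and the call was lost when any 1 of 16 of the 23 mice was left out, with the trend and robust moderation (adjusted p = 0.101) as well. The following genes were chosen after their values were seen. BC048679 was above 3 counts in the same number of D06 mice (6, up to 762 counts) and in 2 control mice (up to 9 counts). Counts above 3 in 6 D06 mice were also found for Aadacl4fm1 (up to 283), Psapl1 (up to 346), the desaturase Scd3 (up to 162) and the acyltransferase Mogat1 (up to 91), with at most 12, 1, 1 and 5 counts in a control mouse. The fatty acid elongase Elovl3 reached 93 counts in D06 mice and 0 in every control mouse, a count of 0 allowing up to 0.189 to 0.232 CPM by counting error alone. Scd3, Elovl3 and the melanocortin receptor Mc5r are known from lipid-secreting glands of the skin and orbit. Mc5r reached 48 counts in D06 mice and 5 in control mice. HOCl mice held Bpifa6 above 3 counts in 5 of 12 and E07 mice in 4 of 12 cases. Without the 8 D06 and control mice that had more than 3 Bpifa6 counts, 552 genes were higher and 84 lower, and 11 membrane, 7 heme synthesis, 5 factor and 16 maturation genes of the red cell lists, 6 platelet, 4 eosinophil and basophil, 2 neutrophil, 5 interferon-stimulated and 7 antioxidant genes were called higher, in a comparison of fewer mice. Among the genes named as lower, Apoe (adjusted p = 0.211), Msr1 (adjusted p = 0.207), Homez (adjusted p = 0.127), Tifab (adjusted p = 0.0940), Naaa, Mettl22 and Cd5 lost the call there, and among those named as higher Ighg1, Thbs1, Retnlg, Cebpe, Mcpt8, Ifit1, Usp18, Hsph1, Nqo1 and Tfrc did. Whether the gland transcripts bear on the other differences was not tested.

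**Figure D5:**
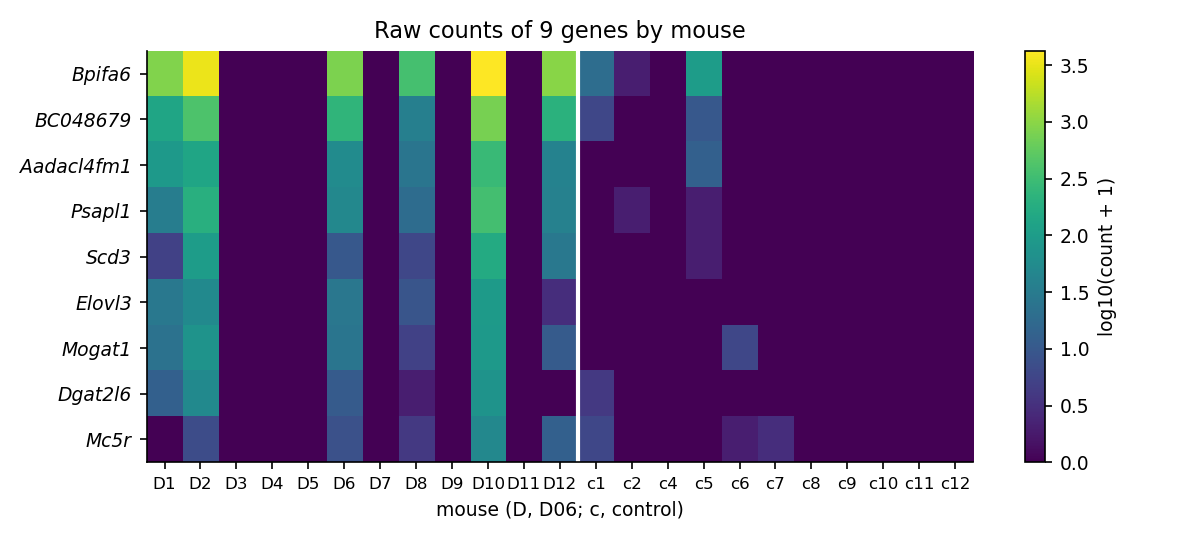
Raw counts, coloured as log10 of the count plus 1, of 9 genes (rows) in each of the 12 D06 mice (D) and 11 control mice (c). The same 6 D06 mice hold counts of nearly all 9 genes, with up to 4235 counts of Bpifa6, and the control mice hold at most 100.

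The count table also held genes outside the normalized table, mostly RNAs that do not code for protein. Of 2648 such genes tested with edgeR, 132 (4.98%) were higher and 3 (0.113%) lower in D06 mice. Among those higher were 45 of 625 long non-coding RNAs and 39 of 424 processed pseudogenes, whose reads may be shared with the parent genes. The smallest p belonged to 5430401H09Rik, with 134 to 411 counts (median 233) in D06 and 63 to 187 (median 127) in control mice. Its log2 fold change was 1.72 ± 0.29 (SE, adjusted p = 0.00214). The gene Sox6, a factor that silences embryonic globin in red cells, held 72 to 285 counts (median 151) against 19 to 113 (median 77), an increase of 1.63 ± 0.31 (SE, adjusted p = 0.00274). The long non-coding RNA Gm12999 rose by 1.50 (adjusted p = 0.00251), and the pseudogenes Ubb-ps, Gm5526 and Gm12481 rose by 1.07, 1.16 and 1.06 (adjusted p = 0.00251, 0.00257 and 0.00274). The 3 lower genes were the long non-coding RNAs 4833403J16Rik with -0.73 (adjusted p = 0.0137), 2010016I18Rik with -0.50 (adjusted p = 0.0378) and Gm16638 with -0.86 (adjusted p = 0.0449), the last not called with the RLE factors (adjusted p = 0.0507).

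The row of the erythroid microRNA gene Mir451a (ENSMUSG00000118889, chr11:77963996-77964067) was chosen after its values were seen. It held 358 to 765 counts (median 508) in D06 mice and 157 to 699 (median 199) in control mice. All 12 D06 mice lay above the control median, and the groups overlapped through the control mouse with 699 counts. The increase was 1.42 ± 0.30 (SE, adjusted p = 0.00443 by edgeR). In poly A selected libraries such reads come from long precursor transcripts, so that the level of the mature microRNA was not measured. The mature sequence is shown, from RefSeq on GRCm38.p6 (chr11:78073186-78073207), with the seed, bases 2 to 8, in capitals.
mmu-miR-451a: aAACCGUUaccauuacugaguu

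D06 mice were set beside HOCl mice without an agent to place their differences from control mice. Against the shared control mice, 503 genes (4.79%) were higher and 18 (0.171%) lower in HOCl mice. Compared directly, 8 genes (0.0761%) were higher and 6 (0.0571%) lower in D06 than in HOCl mice by limma, and 1338 had an unadjusted p under 0.05. None of the red cell, interferon-stimulated, platelet or antioxidant list genes was among the 14 called genes. With so few calls among 10508 genes, this absence says little about these lists. The medians of D06 minus HOCl were -0.09 for membrane, -0.06 for maturation and -0.02 for heme synthesis genes. Trim10 differed by -0.09 (adjusted p = 0.937), Rsad2 by 0.11 (adjusted p = 0.911) and Isg15 by 0.01 (adjusted p = 0.994). Eosinophil and basophil genes had a median of 0.42 and neutrophil genes of -0.29 in this comparison.

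Ccr3 was higher in D06 mice, at 10.05 ± 0.78 (SD, n = 12) against 8.89 ± 0.38 (SD, n = 11) in HOCl mice, a difference of 1.17 ± 0.23 (SE, adjusted p = 0.039). P2ry14, a receptor for UDP-glucose, was at 8.04 ± 0.56 (SD, n = 12) against 7.13 ± 0.43 (SD, n = 11) and differed by 0.91 ± 0.19 (SE, adjusted p = 0.0411). Camk1 averaged 9.53 ± 0.30 (SD, n = 12) against 8.76 ± 0.42 (SD, n = 11), a difference of 0.77 ± 0.14 (SE, adjusted p = 0.0215), with all 12 D06 mice above the HOCl median. Fam8a1, a protein of ER-associated degradation, differed by 0.51 ± 0.10 (SE, adjusted p = 0.0402). Cx3cr1 was lower, at 7.90 ± 0.38 (SD, n = 12) against 8.73 ± 0.34 (SD, n = 11), and fell by 0.83 (adjusted p = 0.0215), with all 12 D06 mice below the HOCl median. The difference was -0.72 ± 0.15 (SE, adjusted p = 0.0402) for App, the amyloid precursor protein, -0.55 ± 0.11 (SE, adjusted p = 0.0402) for Psap, the precursor of the saposins, and -0.49 ± 0.09 (SE, adjusted p = 0.0215) for Tcof1, a nucleolar protein. Against control mice, HOCl mice had 0.06 for Ccr3, 0.20 for Camk1 and -0.01 for Cx3cr1, and D06 mice had 1.23, 0.97 and -0.84. Leaving out 1 of the 23 mice ended the call in 19 cases for App, 18 for Psap, 18 for Fam8a1, 17 for P2ry14, 12 for Ccr3, 4 for Tcof1, 3 for Camk1 and 1 for Cx3cr1. Under total-count scaling App and Cx3cr1 were called and the other 6 were not. The count of calls rested on single mice and on the fit. It was 69 without D06 mouse 5 and 0 without HOCl mouse 2. When another single D06 or HOCl mouse was left out, it lay between 2 and 16. It was 82 when all 6 groups shared a fit, 56 with edgeR and 3 under total-count scaling. The edgeR and total-count fits used counts of all 12 HOCl mice, and limma the 11 with normalized values. Set against E07 mice by limma, Ccr3 (0.50, adjusted p = 0.168), P2ry14 (0.35, adjusted p = 0.189), App (-0.02, adjusted p = 0.954) and Psap (-0.05, adjusted p = 0.817) were not called. Fam8a1 (0.31, adjusted p = 0.0193) and Tcof1 (-0.37, adjusted p = 0.00195) were below the fold required there. Camk1 (0.61, adjusted p = 0.000878) and Cx3cr1 (-0.47, adjusted p = 0.0209) were called.

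Against mice given E07, 885 genes (8.42%) were higher and 141 (1.34%) lower in D06 mice. Among the largest differences past both thresholds were Bpifa6 with 2.06 ± 0.63 (SE, adjusted p = 0.0241), Apol11b, an apolipoprotein L gene, with 1.94 ± 0.44 (SE, adjusted p = 0.00196) and Trim10 with 1.93 ± 0.30 (SE, adjusted p = 6.96e-05). Trim10 averaged 13.50 ± 0.84 (SD, n = 12) against 11.56 ± 0.87 (SD, n = 12) in D06 against E07 mice, and all 12 D06 mice lay above the E07 median. The largest decreases were Ighd, the constant region of IgD, with -0.80 ± 0.13 (SE, adjusted p = 8.3e-05), Cirbp with -0.79 ± 0.12 (SE, adjusted p = 5.15e-05), H2-Aa with -0.72 ± 0.17 (SE, adjusted p = 0.00327) and Trim7, a ubiquitin ligase, with -0.71 ± 0.12 (SE, adjusted p = 0.000158). All 12 D06 mice lay below the E07 median of these 4 genes. Under total-count scaling 305 genes were higher and 7487 lower. Against mice given D11, no gene was called by limma or by edgeR. Of the 10508 genes tested, 655 had an unadjusted p under 0.05 by limma, and 597 had one by edgeR. Where no gene differs, a share of 0.05 of the genes tested falls under this cutoff.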

How the data were processed

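RNA was extracted from whole blood kept in a stabilising reagent, and poly A selected, globin-depleted, strand-specific libraries were sequenced on an Illumina NovaSeq instrument. The authors trimmed reads with Cutadapt, aligned them to mm39 with STAR and counted reads per gene with FeatureCount. The versions of these tools and the annotation release are not given in the sources used here. The deposited counts cover 55416 genes and 71 mice. The deposited log2 values, made by the authors with the vst function of DESeq2, cover 10508 protein-coding genes and 70 mice, since 1 HOCl mouse was analysed by its counts alone. Every column belonged to a labelled mouse. By symbol 10501 vst genes and by annotation name 2 were paired with counts, and 5 were not. Coordinates are from GENCODE vM39 on GRCm39, the build that mm39 names. The D06 mice are the 12 samples titled HOCL with D06.

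Differences in vst values were tested by limma 3.58.1 (lmFit, eBayes, R 4.3.3) in a fit of the groups compared, without covariates, with Benjamini-Hochberg adjustment over all genes. Counts were compared with edgeR 4.0.16 (glmQLFit, glmQLFTest, TMM) and, as an alternative, DESeq2 1.42.0. For genes outside the vst table edgeR's filterByExpr was applied. Total-count scaling used log2 of CPM plus 1. Permutation tests used 100000 resamples in scipy 1.17.1. Figures and tables were made with Python 3.11.15, numpy 2.4.6, pandas 2.3.3 and matplotlib 3.10.9. The tests were tried on simulated data.

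The comparison and the 25 gene lists were chosen with earlier results of these data known, so that no list was tested as a set. Named were the 12 genes with the largest increase and the 12 with the largest decrease past both thresholds, the first measured member of each list and its 2 other members with the smallest p, Lgals3, up to 6 genes in each direction outside the vst table, and up to 4 in each direction against HOCl and E07 mice. Others are said to be chosen after their values were seen, and some of the genes so named are not reported here. Alternatives were other fits, scalings, filters and pseudocounts (0.5), centring, FDR alone, a replicate block, each mouse left out, and 2 omissions of mice chosen after seeing the data. Totals of 12427021 to 15948972 counts limit genes with few counts, and floors of 3 counts cover counting error only.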

Additional observations from a re-analysis of the deposited data

How the results depend on the processing

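For D06 against control mice, total-count scaling called 7042 genes (292 higher, 6750 lower), or 6934 with a pseudocount of 0.5, against 828 with limma on vst values. On counts without TMM factors it called 6728 in place of 1004, and 363 in place of 135 outside the vst table. Without a filter on low counts edgeR called 2612 genes (1821 higher, 791 lower). Against E07 mice total-count scaling called 7792 genes in place of 1026. The FDR alone called 1053 genes against control (858 higher, 195 lower), and the other alternatives kept the total number of calls against control and E07 mice within 1.5 times. The number of genes lower than control moved further, from 64 with limma to 160 with edgeR, 150 with DESeq2, 139 without control mouse 12 and 155 without D06 mouse 5 and control mouse 12, and with edgeR it was 294 without control mouse 12. Against E07 mice 141 genes were lower with limma and 265 with edgeR. When single mice were left out, the calls against control ranged from 730 (without control mouse 8) to 1044 (without control mouse 12) with limma and from 825 to 1340 with edgeR, against E07 mice from 933 to 1119, against HOCl mice from 0 to 69, and against D11 mice they were 0 throughout. Against HOCl mice, where 14 genes were called, all 6 groups in one fit gave 82, edgeR 56 and total-count scaling 3. Of these, edgeR and total-count scaling used all 12 HOCl mice in place of 11.

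Mice of 2 groups with the same number are different animals. The deviations of the 11 same-numbered D06 and control mice from their group means had a mean correlation of 0.0775 (from -0.0658 to 0.292). Pairs with different numbers averaged -0.0050. The correlation was over 0.1 in 4 pairs, and 2 D06 mice correlated best with their own number. Same-numbered means were 0.0756 with E07, 0.117 with D11 and 0.0100 with HOCl mice. Whether mice with the same number shared a step of handling was not tested. With a replicate block 882 genes were called against control by limma, 992 by edgeR and 120 outside the vst table, 1042 against E07 mice, 0 against D11 mice and 0 against HOCl mice, where 1328 had an unadjusted p under 0.05.

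Under total-count scaling, with a median of all genes of -0.57, list medians turned from positive to negative for the erythroid factors (-0.02), proliferation (-0.12), platelet (-0.062), interferon-stimulated (-0.51), antioxidant (-0.23), proteasome (-0.51), heat shock (-0.43), immediate early (-0.32) and galectin (-0.39) lists. They moved to -0.57 for neutrophil, -0.83 for monocyte, 0.37 for eosinophil and basophil, -0.85 for B cell, -0.63 for immunoglobulin, -0.70 for T cell, -0.57 for NK, -0.85 for MHC class II, -0.69 for MHC class I, -0.62 for TGF-beta, -0.68 for Fc receptor, -0.69 for Toll-like receptor and -0.67 for clock genes. Without the mice with Bpifa6 counts the median turned for the proteasome (-0.083), immediate early (-0.0085), TGF-beta (0.010) and NK (0.0026) lists, and without D06 mouse 5 and control mouse 12 for the interferon-stimulated list (-0.021). Single genes that turned from a positive to a negative log2 fold change under total-count scaling, with a pseudocount of 1 and of 0.5 where the values differ, were Gata1 (-0.017 and -0.018), S100a8 (-0.56), Ccl5 (-0.34 and -0.35), Gzmb (-0.30 and -0.31), B2m (-0.27), Psmd8 (-0.31), Fos (-0.25), Atf3 (-0.012 and -0.0059), Hspa8 (-0.31), Ltbp1 (-0.14), Lgals3 (-0.51), Lgals1 (-0.32 and -0.33), Lgals9 (-0.34), Irak1 (-0.16) and Srxn1 (-0.0103 and -0.0105). S100a8, at 0.01 with all mice, was -0.025 with the replicate block and in the mice of that block without it, -0.011 without D06 mouse 5 and control mouse 12, -0.37 without the mice with Bpifa6 counts and between -0.17 and 0.13 when 1 mouse was left out, negative in 8 cases. Without the mice with Bpifa6 counts Fos was at -0.059, Lgals3 at -0.033 and Tgfb1 at 0.039. The causes were not tested beyond the construction of each alternative. Over the named genes, leaving out 1 mouse kept the direction and the call in 2852 of the values, ended the call in 152, added one in 32 and turned the direction in 8. Under the other alternatives these numbers were 1299, 79, 73 and 37.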
